A study of Mus musculus with 10 samples.

Results

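The 36 genes described here encode the enzymes and transporters with which skeletal muscle takes up glucose, splits it to pyruvate and lactate, and stores or mobilizes glycogen. They were chosen by name as a pathway list, with earlier results of these data known, and looked up by symbol. The shares set beside all tested genes below therefore describe a list that was not chosen blind. All 36 were found among the 54232 genes of the deposited table, and all 36 lay above the expression limit that left 14289 genes for testing. The RNA came from the gastrocnemius, a fast calf muscle (other passages of the study name the neighbouring plantaris with it, which holds some slow fibers), of 5 desmin knock-out and 5 wild-type littermate mice. The mice were 3 months old, and the strain is labelled B6J.129Sv-Destm1Cba/Cscl. Knock-out mice carried the genotype Des -/- and wild-type mice Des wt/wt. The knock-out removes desmin, the intermediate filament of muscle, from the germ line on, so it is not limited to one tissue or age. Values are the regularized logs (rlog) of DESeq2, a log2 measure of expression in which each gene is pulled towards its own mean. They understate fold changes of read counts, most of all for weakly expressed genes, and give no sequencing depth.

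Glycolysis runs in the cytosol and yields ATP quickly without oxygen, which is why fast muscle fibers are rich in its enzymes. Glycogen is the fiber's own glucose store. Glycogen phosphorylase releases glucose phosphate from it when phosphorylase kinase, a calcium-sensitive enzyme of several subunits, switches it on, and glycogen synthase with the branching enzyme rebuilds it. The NADH made on the way is reoxidized by lactate dehydrogenase or through the glycerol phosphate shuttle.

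In desmin knock-out muscle, 10 of the 36 genes were lower and 0 were higher at an adjusted p under 0.05 (limma, two-sided, Benjamini-Hochberg over all 14289 tested genes). Of all tested genes, 5.99% were lower and 7.7% higher by the same rule, compared with 27.8% lower among these genes. At an unadjusted p under 0.05, 19 genes were lower and 1, Slc16a1, was higher. The means of 29 genes (80.6%) were lower in the knock-out, against 50.5% of all tested genes. Their median log2 difference was -0.40, while that of all tested genes was -0.003. For 8 genes (22.2%) every knock-out mouse lay below every wild-type mouse, as 6.97% of all tested genes did, and for 0 every knock-out mouse lay above, as 7.45% did. By role, the lower genes were 3 of 4 for glycogen breakdown, 3 of 6 for lactate and redox handling, 3 of 11 for upper glycolysis (hexokinase to triose phosphate isomerase), 1 of 7 for lower glycolysis, and 0 of 2 for glucose entry and 0 of 6 for glycogen synthesis. The corresponding median log2 differences were -0.61, -0.53, -0.43, -0.45, -0.03 and -0.03. Whether the roles differed from each other was not tested.

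**Figure D1:**
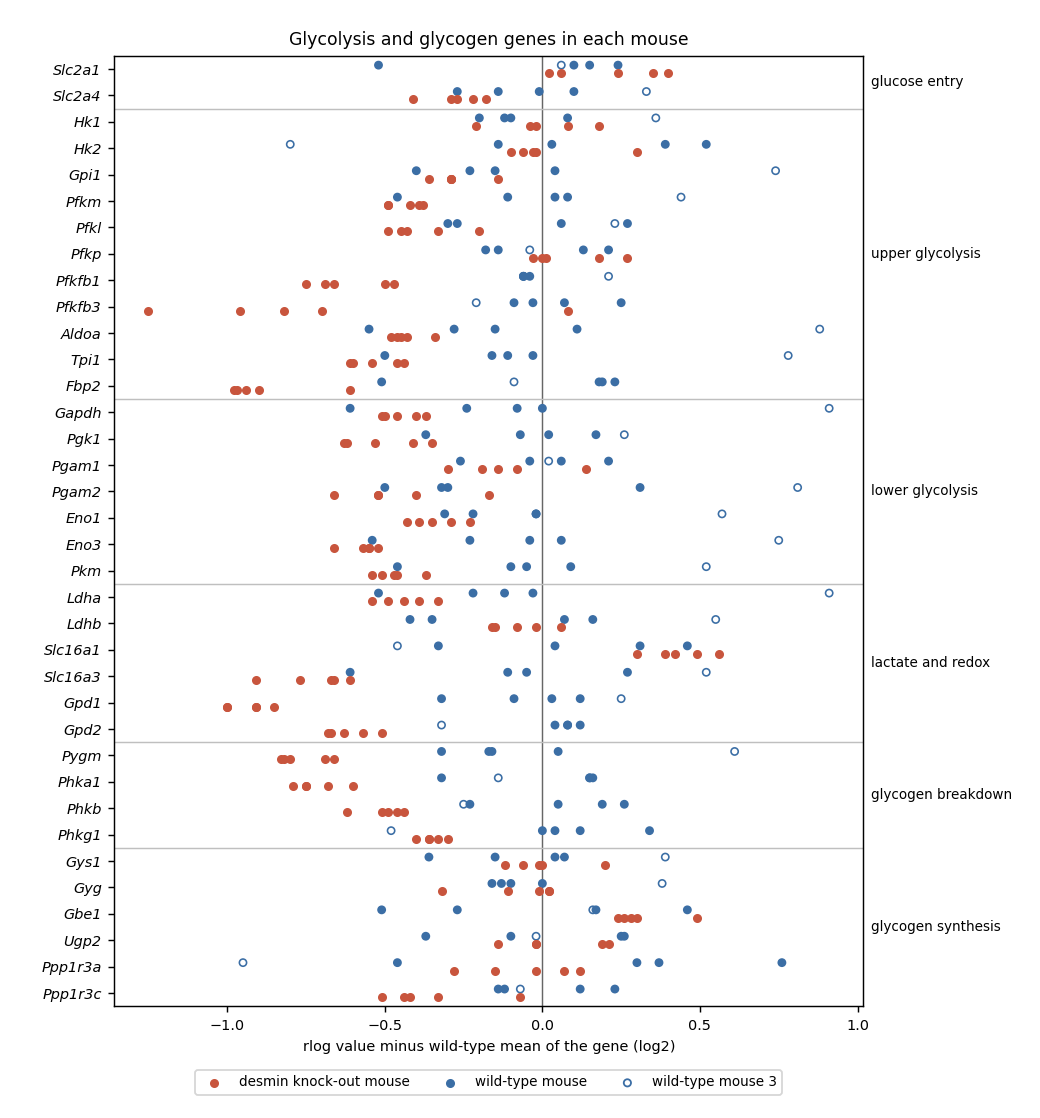
Each point is 1 mouse, placed on the x axis by its rlog value minus the wild-type mean of that gene (log2), with genes in rows grouped by role. Red points are desmin knock-out mice, blue points wild-type mice and open blue circles wild-type mouse 3. The knock-out mice lie to the left of all wild-type mice for 8 genes, among them Gpd1, Pygm and Phka1, and wild-type mouse 3 is the rightmost wild-type mouse for 20 genes.

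Several values of the whole data set bear on these counts. Des itself, the targeted gene, had rlog values of 11.76 to 11.89 in knock-out and 16.10 to 17.74 in wild-type mice (log2 difference -4.73, exact permutation test p = 0.00794, two-sided). Wild-type mouse 3 stood apart: its summed expression (2 to the power of the rlog value) was 1.48 times the median of all mice, against 0.949 to 1.06 times in the other mice. This mouse had the highest wild-type value for 20 of the 36 genes and the lowest for 7, whereas wild-type mouse 5 had the lowest for 21. The median of the 36 deviations from the wild-type mean was 0.26 in wild-type mouse 3, -0.28 in wild-type mouse 5 and -0.09 to 0.04 in the other wild-type mice, and -0.44 to -0.33 in the knock-out mice. Without wild-type mouse 3, 13 of the genes were lower (36.1%, against 8.13% of all tested genes) and the median difference was -0.27. Without wild-type mouse 5, 15 were lower, against 5.62% of all tested genes. A further 7 markers of skeletal muscle fibers, among them Acta1, Ckm and Ttn, had a median log2 difference of -0.42, with 2 lower (Actn3 and Myh4) and 0 higher. These markers did not all go the same way. Mb, named after its values were seen, had a higher mean (0.32, adjusted p = 0.15, limma). Without wild-type mouse 3, Mb was higher (0.38, adjusted p = 0.021, limma). Ttn differed by -0.13 (adjusted p = 0.681, limma). The summed level of the 7 markers (log2 of the summed 2 to the power of the rlog values) was 22.18 to 23.11 in wild-type and 21.90 to 22.08 in knock-out mice. In a fit chosen after the values were seen, each mouse was centred on the mean of these 7 markers, which moved the median of all tested genes up by 0.41. The median of the 36 genes was then 0.01. Only Gpd1 and Pygm were still lower (0.728% of all tested genes were), and Slc2a1, Hk1, Slc16a1, Gys1, Gyg and Gbe1 were higher, as were 31.0% of all tested genes. In RNA from whole muscle, fewer fibers and less RNA per fiber cannot be told apart.

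The genes of glycogen breakdown had the lowest median of the 6 roles. The 250 bases before the RefSeq transcript start (GRCm38.p6, on the strand of the gene) are shown for Pygm, Phka1 and Phkb, the 3 lower genes of this role, and for Fbp2, the gluconeogenic gene with the largest difference among the upper glycolysis genes. Capitals mark motif matches. These are a loose form of the MEF2 motif (CTANNNNTAG, with the middle bases left free) 216 bases before the start of Phka1, and the E-box (CACGTG) 42 bases before that of Fbp2. Both motifs read the same way on either strand.
Pygm, chr19:6384158-6384407, plus strand: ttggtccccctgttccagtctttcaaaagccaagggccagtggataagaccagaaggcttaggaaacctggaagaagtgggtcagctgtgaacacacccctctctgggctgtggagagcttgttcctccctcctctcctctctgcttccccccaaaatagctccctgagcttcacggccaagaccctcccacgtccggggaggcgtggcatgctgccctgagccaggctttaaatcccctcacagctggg
Phka1, chrX:102644247-102644496, minus strand: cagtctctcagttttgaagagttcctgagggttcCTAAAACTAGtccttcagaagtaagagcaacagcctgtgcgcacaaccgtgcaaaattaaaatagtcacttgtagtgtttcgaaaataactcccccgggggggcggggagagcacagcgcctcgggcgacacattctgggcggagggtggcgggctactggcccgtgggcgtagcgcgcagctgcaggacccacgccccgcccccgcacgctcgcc
Phkb, chr8:85840738-85840987, plus strand: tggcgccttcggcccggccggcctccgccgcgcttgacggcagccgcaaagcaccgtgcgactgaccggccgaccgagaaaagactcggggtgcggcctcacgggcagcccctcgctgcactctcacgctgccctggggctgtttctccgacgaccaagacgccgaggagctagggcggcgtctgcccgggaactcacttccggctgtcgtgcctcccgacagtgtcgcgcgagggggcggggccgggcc
Fbp2, chr13:62858401-62858650, minus strand: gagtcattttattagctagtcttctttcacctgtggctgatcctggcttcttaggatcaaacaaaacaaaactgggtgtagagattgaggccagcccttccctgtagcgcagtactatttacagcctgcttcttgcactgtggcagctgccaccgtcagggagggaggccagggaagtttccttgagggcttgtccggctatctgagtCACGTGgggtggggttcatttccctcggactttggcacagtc

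Promoters were matched for 34 of the 36 genes, with Gpd1 and Slc2a4 unmatched. The loose MEF2 pattern, named after a family of muscle transcription factors, was in 3 of the 50 promoter windows of these genes (Ldhb, Phka1 and Ppp1r3a). It was in 3.2% of the 32851 mouse promoters of the table. Its middle bases were left free, and the Ldhb and Phka1 matches hold C or G there, where the usual MEF2 site has A or T. The E-box, read by factors such as MLXIPL and MYC, was in 6 of the 50 windows (Fbp2, Ldha, Pfkfb3, Pfkm, Ppp1r3c and Slc16a1) and in 6.02% of all promoters. The motif of the estrogen-related receptors (AAGGTCA, searched on both strands) was in 2 of the 50 windows (Eno1 and Pfkfb1) and in 4.08% of all promoters, and the MEF3 motif, bound by homeobox factors such as Six4 (TCAGGTT, both strands) in 1 of the 50 (Pfkl) and in 3.49%. Of the 9 matched lower genes, 1 held the loose MEF2 pattern, 2 the E-box, 1 the receptor motif and 0 the MEF3 motif. Those are counts of genes, and some genes have several windows. The shares of all promoters are per window, so they are no background for the gene counts. All of these are matches of letters only.

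Pygm (ENSMUSG00000032648, chr19:6384399-6398459, plus strand) encodes muscle glycogen phosphorylase, the enzyme that is missing in McArdle disease. Its rlog values in wild-type mice 1 to 5 were 17.98, 17.97, 18.75, 18.19 and 17.82, and in knock-out mice 1 to 5 they were 17.31, 17.48, 17.45, 17.34 and 17.32. All knock-out mice were below all wild-type mice, and wild-type mouse 3 was highest. On the rlog scale the level was 41.0% lower (log2 difference -0.76, standard error 0.18, limma adjusted p = 0.0108). It was -0.61 without wild-type mouse 3 (adjusted p = 0.00153) and -0.35 when centred on the muscle markers (adjusted p = 0.00892).

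Phosphorylase kinase, which activates phosphorylase, is built from several subunits, of which alpha, beta and gamma are among the 36 genes. Phka1, the alpha subunit of muscle (ENSMUSG00000034055, chrX:102513975-102644246, minus strand), read 15.58, 15.58, 15.29, 15.59 and 15.11 in wild-type mice 1 to 5 and 14.68, 14.64, 14.83, 14.75 and 14.68 in the knock-out mice. The 2 genotypes did not overlap (-0.72, standard error 0.12, adjusted p = 0.00113, limma). Phkb, the beta subunit (ENSMUSG00000036879, chr8:85840959-86061376, plus strand), read 14.66, 14.59, 14.15, 14.17 and 14.45 in wild-type mice and 13.89, 13.78, 13.94, 13.96 and 13.91 in knock-out mice. Here too the knock-out mice all lay lower (-0.51, standard error 0.12, adjusted p = 0.0108, limma). For Phkg1, the catalytic gamma subunit of muscle, the wild-type values were 14.48, 14.40, 13.88, 14.70 and 14.36 and the knock-out values 14.00, 14.03, 14.06, 14.00 and 13.96. Wild-type mouse 3 was below all knock-out mice, and the other wild-type mice were above them. Phkg1 did not pass with all mice (-0.35, standard error 0.13, adjusted p = 0.0969, limma) but did without wild-type mouse 3 (-0.48, adjusted p = 0.00107), when all 4 genes of glycogen breakdown were lower. Centred on the muscle markers, the differences of Phka1, Phkb and Phkg1 were -0.30, -0.09 and 0.06, and none of the 3 passed.

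Of the 6 genes of glycogen synthesis, 0 were lower or higher with all mice, and 1, Ppp1r3c, was lower without wild-type mouse 3. Gys1, the glycogen synthase of muscle, had wild-type values of 13.88, 14.10, 14.42, 14.07 and 13.67 and knock-out values of 14.03, 14.23, 14.02, 13.91 and 13.97. The ranges overlapped widely, the log2 difference was 0.00 and its 95% interval ran from -0.28 to 0.28. Gyg, the glycogenin that primes a new glycogen particle, and Ugp2, which makes UDP-glucose, had differences of -0.08 (95% interval -0.34 to 0.18) and 0.04 (-0.26 to 0.34). Gbe1, the branching enzyme, had a higher mean in the knock-out (11.86 ± 0.10 against 11.55 ± 0.39, SD, n = 5 each), but the groups overlapped (0.31, adjusted p = 0.217, limma). Ppp1r3a and Ppp1r3c encode subunits that bring protein phosphatase 1 to glycogen. Ppp1r3a varied widely among wild-type mice, from 12.61 in mouse 3 to 14.32 in mouse 1, with a difference of -0.06 (standard error 0.26). Ppp1r3c, also called PTG, had a difference of -0.36 (standard error 0.12, adjusted p = 0.0704, limma), which passed without wild-type mouse 3 (-0.37, adjusted p = 0.0324). Set side by side within each mouse, a comparison chosen after the values were seen and therefore not tested, Pygm exceeded Gys1 by 3.87 to 4.33 on the log2 scale in wild-type mice and by 3.25 to 3.43 in knock-out mice.

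The largest difference among the 36 genes was that of Gpd1, the cytosolic glycerol-3-phosphate dehydrogenase (ENSMUSG00000023019, chr15:99717515-99725005, plus strand). Together with the mitochondrial enzyme Gpd2 it forms the glycerol phosphate shuttle, which passes electrons of glycolytic NADH to the respiratory chain. Gpd1 read 14.64, 14.76, 14.98, 14.85 and 14.41 in wild-type mice 1 to 5 and 13.73, 13.73, 13.82, 13.88 and 13.82 in knock-out mice 1 to 5. The genotypes were well separated, and the level was 47.6% lower in the knock-out (log2 difference -0.93, standard error 0.11, adjusted p = 9.53e-05, limma). It stayed lower when centred on the muscle markers (-0.52, adjusted p = 0.00707). Gpd2 (ENSMUSG00000026827, chr2:57237635-57370719, plus strand) read 12.83, 12.87, 12.43, 12.79 and 12.83 in wild-type and 12.12, 12.07, 12.08, 12.24 and 12.18 in knock-out mice. Wild-type mouse 3 was the lowest wild-type mouse but still above every knock-out mouse (-0.61, standard error 0.10, adjusted p = 0.000916, limma). Both members of the shuttle were thus lower with all mice, but Gpd2 did not pass when centred on the muscle markers (-0.20, adjusted p = 0.403, limma). Exons of Gpd1 and Gpd2 overlap antisense transcripts in GENCODE M21 (Gm16537 and A930012O16Rik), and whether the counting used strand is not stated.

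Lactate leaves fast fibers through MCT4, the product of Slc16a3, and is taken up by oxidative cells through MCT1, the product of Slc16a1. Slc16a3 (ENSMUSG00000025161, chr11:120948480-120960868, plus strand) read 13.86, 13.92, 14.49, 14.24 and 13.36 in wild-type and 13.06, 13.36, 13.20, 13.31 and 13.30 in knock-out mice. The lowest wild-type and the highest knock-out mouse were equal to 2 decimals, and the difference was -0.73 (standard error 0.17, adjusted p = 0.0119, limma). Slc16a1 read 11.66, 11.51, 10.74, 10.87 and 11.24 in wild-type and 11.62, 11.59, 11.50, 11.69 and 11.76 in knock-out mice. The knock-out mice were close together near the upper end of the wild-type range, and the difference of 0.43 did not pass (standard error 0.16, adjusted p = 0.0948, limma); it did when wild-type mouse 1 was left out. Of the lactate dehydrogenase subunits, Ldha, the form of fast muscle, had a difference of -0.44 (standard error 0.22, and -0.22 without wild-type mouse 3) and Ldhb, the form of heart and oxidative fibers, of -0.07 (standard error 0.16), and neither passed.

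**Figure D2:**
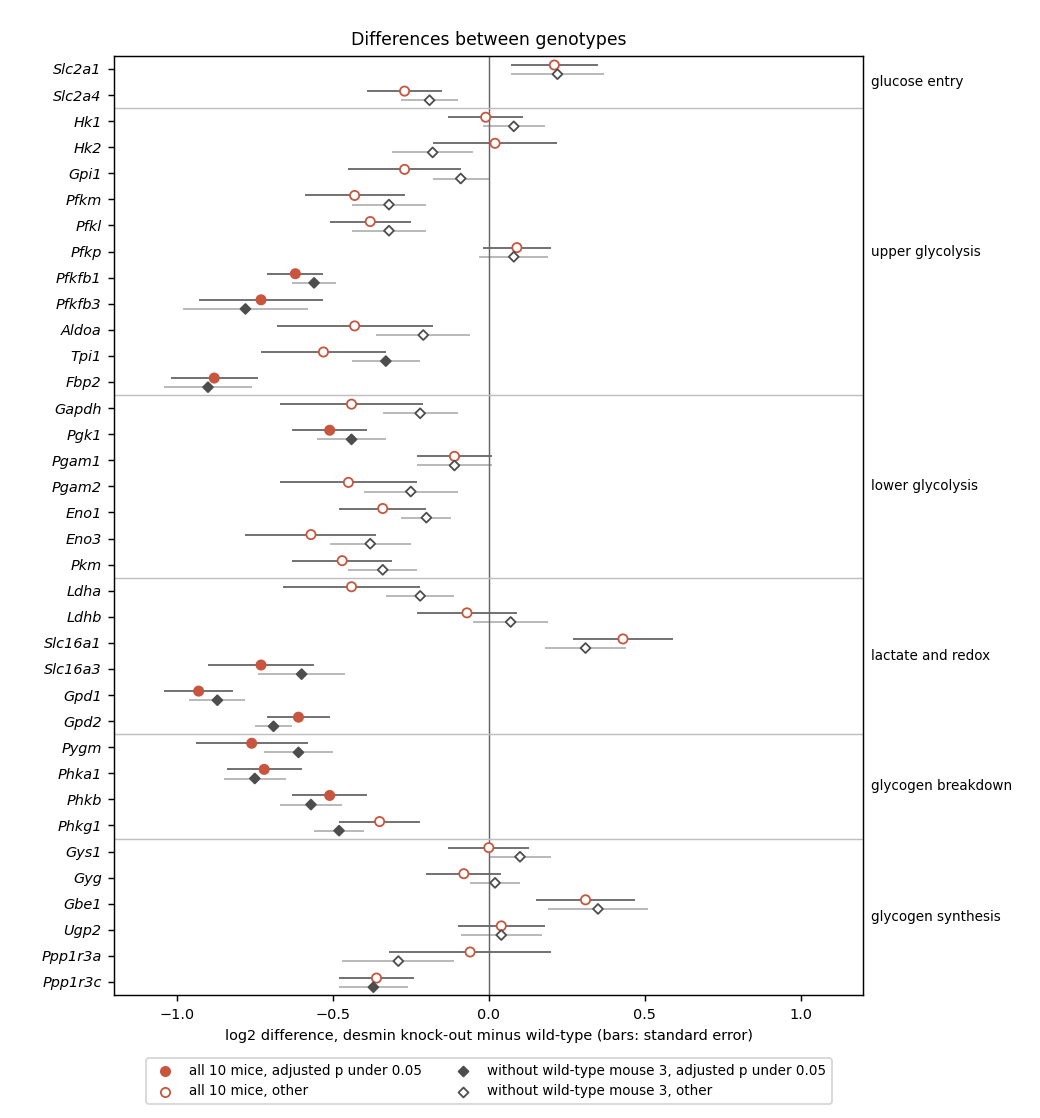
Points give the log2 difference of desmin knock-out minus wild-type for each gene with its standard error, as circles for all 10 mice and as diamonds for the 9 mice without wild-type mouse 3; filled symbols have an adjusted p under 0.05. With all mice 10 circles are filled, all to the left of 0, and without wild-type mouse 3 the 13 filled diamonds include Phkg1, Tpi1 and Ppp1r3c.

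In upper glycolysis the 3 lower genes were Fbp2, Pfkfb1 and Pfkfb3, which encode the phosphatase that opposes phosphofructokinase and regulators of that step. Fbp2, the muscle fructose-1,6-bisphosphatase (ENSMUSG00000021456, chr13:62836877-62858422, minus strand), read 11.24, 11.20, 10.92, 11.19 and 10.50 in wild-type and 10.03, 10.04, 10.40, 10.11 and 10.07 in knock-out mice. The gap between the genotypes was small, between wild-type mouse 5 and knock-out mouse 3, while the level was 45.6% lower on average (log2 difference -0.88, standard error 0.14, adjusted p = 0.000843, limma). Pfkfb1, a bifunctional enzyme that makes and breaks fructose 2,6-bisphosphate, the activator of phosphofructokinase (ENSMUSG00000025271, chrX:150588229-150643878, plus strand), read 11.62, 11.62, 11.89, 11.64 and 11.62 in wild-type and 10.93, 11.02, 11.21, 10.99 and 11.18 in knock-out mice. Apart from wild-type mouse 3, the wild-type mice were nearly equal, and all lay above the knock-out mice (-0.62, standard error 0.09, adjusted p = 0.000477, limma). Some exon sequence of Pfkfb1 overlaps that of Apex2 on the other strand. Pfkfb3, the isozyme with the highest kinase activity (ENSMUSG00000026773, chr2:11471433-11554077, minus strand), read 13.19, 13.47, 13.01, 13.29 and 13.13 in wild-type and 11.97, 12.52, 13.30, 12.40 and 12.26 in knock-out mice. Knock-out mouse 3 lay within the wild-type range and the other knock-out mice below it. Pfkfb3 was lower with all mice (-0.73, standard error 0.20, adjusted p = 0.0249, limma), and this call was lost when any single knock-out mouse other than mouse 3, or wild-type mouse 2 or 4, was left out, and without the expression limit.

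The most abundant glycolytic enzymes had lower means that did not pass the test with all mice. Aldoa, aldolase A, was the most abundant of the 36 genes per kilobase of exon, with a wild-type mean of 18.19 on the log2 scale. Eno3, the enolase of muscle, followed with 17.45, Pgam2, the muscle phosphoglycerate mutase, with 16.69, Pygm with 16.46, Pfkm with 15.79, Gapdh with 15.55, Ldha with 15.51 and Tpi1 with 15.44. Pfkp, the platelet phosphofructokinase, was lowest with 3.94. Pgam2 and Pygm lie closer together than the wild-type SD, as do Pfkm, Gapdh, Ldha and Tpi1, so their order is not resolved. The length used is the union of all annotated exons of a gene, 4133 bases for Gapdh and 840 for Pgam2. Without length correction the wild-type mean was 17.60 for Gapdh and 16.44 for Pgam2, so the ranks depend on the annotation. Aldoa had rlog values of 19.45, 19.58, 20.61, 19.84 and 19.18 in wild-type and 19.28, 19.39, 19.30, 19.27 and 19.25 in knock-out mice. Wild-type mouse 3 was far above and wild-type mouse 5 below all knock-out mice, and the difference of -0.43 was smaller than the wild-type SD of 0.55 (adjusted p = 0.277, limma). Without wild-type mouse 3 the difference was -0.21 and the wild-type SD 0.27. Gapdh, which makes glycolytic NADH, had the same pattern, from 16.99 in wild-type mouse 5 to 18.51 in wild-type mouse 3, around knock-out values of 17.09 to 17.23 (-0.44, standard error 0.23, and -0.22 without wild-type mouse 3). Eno3 ranged from 17.71 to 19.00 in wild-type and from 17.59 to 17.73 in knock-out mice (-0.57, standard error 0.21, adjusted p = 0.0902, limma). Tpi1, triose phosphate isomerase, had a difference of -0.53 that did not pass (standard error 0.20, adjusted p = 0.0955, limma), but did when wild-type mouse 3 (-0.33, adjusted p = 0.0489) or wild-type mouse 5 was left out. The remaining abundant enzymes, Pfkm (-0.43), Pgam2 (-0.45) and Pkm (-0.47), likewise had a lower mean with overlapping groups, and differences of -0.32, -0.25 and -0.34 without wild-type mouse 3. Eno3, Pfkm and Pkm passed when wild-type mouse 5 was left out. For Aldoa, Gapdh, Eno3, Tpi1, Pfkm, Pgam2 and Pkm the knock-out SD was 0.05 to 0.18, against 0.33 to 0.56 in wild-type mice and 0.21 to 0.35 in wild-type mice without mouse 3.

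Pgk1, phosphoglycerate kinase, was the lower gene of lower glycolysis (ENSMUSG00000062070, chrX:106187100-106203699, plus strand). It read 14.21, 14.36, 14.45, 14.12 and 13.82 in wild-type and 13.57, 13.56, 13.66, 13.78 and 13.84 in knock-out mice. Knock-out mouse 5 was just above wild-type mouse 5, so the groups overlapped (-0.51, standard error 0.12, adjusted p = 0.014, limma). Near-identical copies (at least 95% identity over at least 100 bases in transcripts of other annotated genes) cover 68.8% of its transcript. They also cover over 50% of the transcripts of Eno1 (85.6%), Ldhb (76.8%), Pkm (65.5%) and Ldha (55.0%), and Gapdh has such matches in 144 other genes. Values of these genes are uncertain to the extent that the counting split or dropped shared reads.

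Glucose entry and the hexokinases showed no difference that passed. Slc2a4, the insulin-responsive transporter GLUT4, read 14.59, 14.72, 15.06, 14.83 and 14.46 in wild-type and 14.32, 14.44, 14.46, 14.55 and 14.51 in knock-out mice. Its groups overlapped at wild-type mouse 5 (-0.27, 95% interval -0.53 to -0.02, adjusted p = 0.152, limma). Slc2a1, the basal transporter GLUT1, had a difference of 0.21 (95% interval -0.10 to 0.52). Hk2, the hexokinase of insulin-sensitive muscle, had a wild-type range from 12.87 in mouse 3 to 14.19 in mouse 1 and a difference of 0.02 (95% interval -0.42 to 0.46), and Hk1, the general form, one of -0.01 (-0.27 to 0.26). The other genes without a call were Gpi1 (-0.27, and -0.09 without wild-type mouse 3), the liver and platelet phosphofructokinases Pfkl (-0.38, adjusted p = 0.0745) and Pfkp (0.09), Pgam1 (-0.11) and Eno1 (-0.34, adjusted p = 0.134, limma). Pfkl passed when wild-type mouse 1 or wild-type mouse 5 was left out.

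Isozymes of the same step were compared within each mouse, since a constant shift of a whole sample cancels in the difference of 2 genes. Quantile normalization, which is no constant shift, does not cancel. Of 10 pairs, 2 passed an exact permutation test (two-sided, 5 against 5 mice, smallest possible p = 0.00794) after adjustment over the pairs. Neither passed after quantile normalization or when any single mouse other than wild-type mouse 5 was left out, and 4 pairs passed without wild-type mouse 5. Leaving out a mouse raises the smallest possible p so far that 2 separated pairs alone cannot pass after adjustment. Those losses therefore do not show whether the 2 results depend on single mice. Slc16a3 exceeded Slc16a1 by 2.19, 2.41, 3.75, 3.37 and 2.12 on the rlog scale in wild-type mice and by 1.45, 1.77, 1.70, 1.62 and 1.54 in knock-out mice. No knock-out mouse reached the wild-type range, and the mean excess fell from 2.77 ± 0.74 to 1.61 ± 0.13 (SD, n = 5 each, exact permutation p = 0.00794, adjusted p = 0.0397). Per kilobase of exon this was a 5.68-fold excess of the MCT4 over the MCT1 transcript in wild-type and a 2.55-fold excess in knock-out muscle. Both folds depend on the union of annotated exons, 5318 bases for Slc16a3 and 4426 for Slc16a1. Pfkm, the muscle phosphofructokinase, exceeded Pfkp by 9.60, 9.67, 10.32, 10.06 and 9.56 in wild-type and by 9.14, 9.28, 9.49, 9.35 and 9.34 in knock-out mice. These groups did not overlap either (change -0.52, exact permutation p = 0.00794, adjusted p = 0.0397). The changes without wild-type mouse 3 were -0.91 and -0.40. Eno3 over Eno1 changed by -0.23 (exact permutation p = 0.0317, adjusted p = 0.106), and Slc2a4 over Slc2a1 (-0.48), Ldha over Ldhb (-0.37), Pgam2 over Pgam1 (-0.34), Gpd1 over Gpd2 (-0.32), Pfkm over Pfkl (-0.05), Hk2 over Hk1 (0.02) and Pfkfb1 over Pfkfb3 (0.11) did not pass. Rlog shrinkage is stronger for weakly expressed genes such as Pfkp, and this is not removed by the within-mouse difference.

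**Figure D3:**
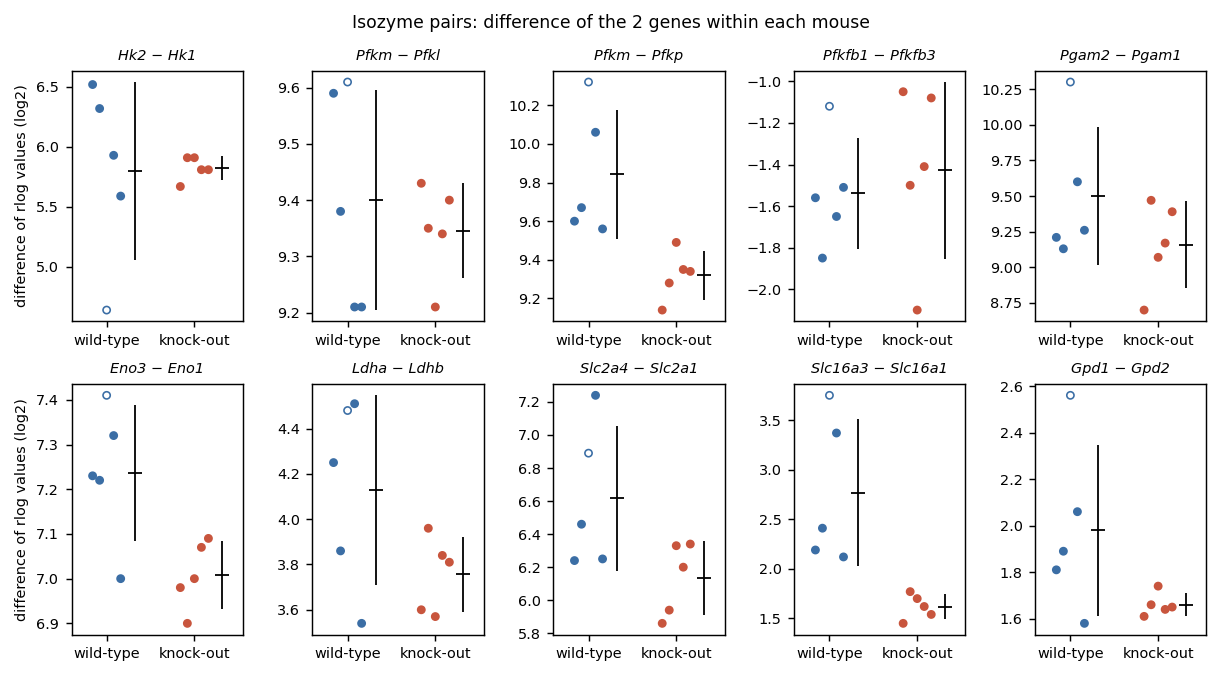
Each panel shows the difference of the rlog values of 2 isozyme genes (log2) in each wild-type (blue, mouse 3 open) and desmin knock-out mouse (red), with the mean and SD of each genotype in black; the axes start at different values. The genotypes do not overlap for Pfkm minus Pfkp and for Slc16a3 minus Slc16a1, where the means are 2.77 and 1.61.

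A second list, also chosen with earlier results of these data known, held 47 further genes of the pathway (other isozymes, phosphoglucomutases and further regulatory subunits). Of these, 39 were tested, 4 (Pgk2, Pklr, Ldhc and Ppp1r3g) had the value 0 in every mouse, and 4 were under the expression limit. There were 10 lower (25.6%) and 3 higher genes (7.69%), against 5.99% and 7.7% of all tested genes, and the median log2 difference was -0.19. In glycogen breakdown 4 of 9 were lower. Around fructose 2,6-bisphosphate, Pfkfb4 and the phosphatase Tigar were lower by -0.48 and -0.52 (adjusted p = 0.00116 and 0.00458, limma). Bpgm, which makes 2,3-bisphosphoglycerate, differed by -0.46 (adjusted p = 0.00644, limma). The neuronal-type transporter gene Slc2a3 (GLUT3) read 8.81 to 9.37 in wild-type and 7.70 to 8.42 in knock-out mice (-1.12, standard error 0.14, adjusted p = 0.000164, limma).

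The phosphoglucomutase step joins glycogen to glycolysis, and genes of the phosphoglucomutase family went in both directions. Per kilobase of exon, the wild-type mean of Pgm1 (14.65) was far above those of Pgm2 (4.74) and Pgm5 (7.56). Pgm1, the main form of muscle and named here after its values were seen, was lower (-0.62, standard error 0.13, adjusted p = 0.0071, limma). Pgm2 was higher by 0.51, with 5.87 to 6.27 in wild-type and 6.53 to 6.72 in knock-out mice (adjusted p = 0.00684, limma). Pgm5, a relative without enzyme activity that sits at cell adhesion sites, read 9.20 to 9.56 in wild-type and 10.10 to 10.23 in knock-out mice (0.73, standard error 0.09, adjusted p = 9.27e-05, limma). The third gene that was higher, Ldhd, the mitochondrial D-lactate dehydrogenase, differed by 0.62 and is likewise named after its values were seen.

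**Figure D4:**
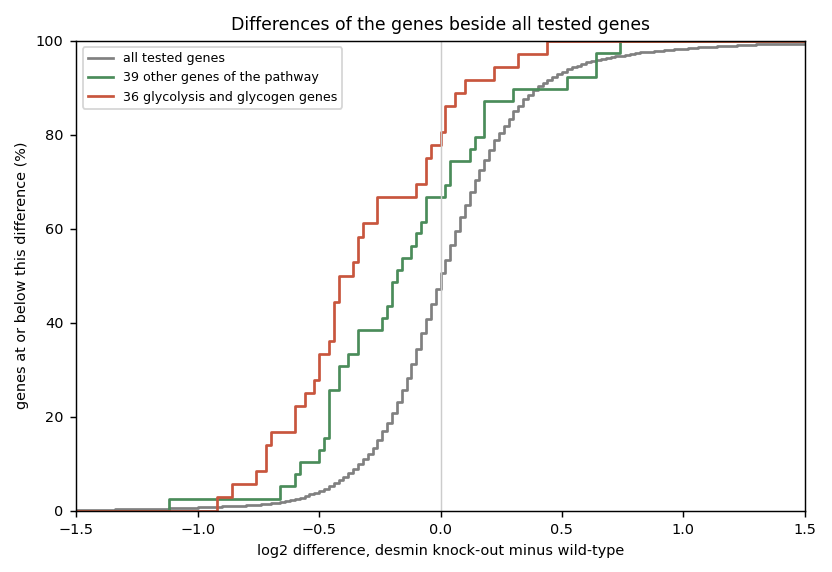
The curves give, for each log2 difference of desmin knock-out minus wild-type on the x axis, the percent of genes at or below it, for all tested genes (grey), the 36 genes (red) and the 39 tested further genes of the pathway (green). The red curve reaches 80.6% at 0, where the grey curve is at 50.5%, and its median lies at -0.40.

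Of 22 regulators of the pathway (AMP-activated kinase subunits, the RabGAPs of GLUT4 vesicles, and transcription factors), 1 was lower (4.55%) and 2 were higher (9.09%), shares near the 5.99% and 7.7% of all tested genes, and the median difference was 0.03. Prkag3, the AMP-activated kinase subunit of fast glycolytic fibers, read 12.70, 12.59, 13.14, 13.22 and 13.11 in wild-type and 12.41, 12.40, 12.70, 12.40 and 12.12 in knock-out mice (-0.55, standard error 0.14, adjusted p = 0.0208, limma), with knock-out mouse 3 inside the wild-type range. Prkaa1, a catalytic subunit of the same kinase, read 9.66, 9.62, 9.27, 9.21 and 9.50 in wild-type and 10.30, 10.28, 10.27, 10.36 and 10.42 in knock-out mice, without overlap (0.87, standard error 0.10, adjusted p = 7.65e-05, limma). Six4, a homeobox factor of fast muscle genes, was higher by 0.43 (standard error 0.12, adjusted p = 0.0333, limma). This call held in 11 of 19 alternative fits and was lost when knock-out mouse 1 or knock-out mouse 2 was left out.

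Markers of fiber types also differed between the genotypes, though in both lists many did not pass, and 3 of the fast markers (Myh4, Tnnt3 and Actn3) are also among the 7 muscle markers above. For comparison, 5.99% of all tested genes were lower and 7.7% higher. Of 12 fast fiber markers 4 were lower and 0 higher, with a median of -0.43; the fast myosin Myh1, named after its values were seen, had a higher mean (0.58, adjusted p = 0.132, limma) and was higher without wild-type mouse 3 (0.79, adjusted p = 0.00525, limma). Among the lower genes, Mybpc2 differed by -1.05 and Actn3 by -0.97 (limma, adjusted p = 0.00258 and 0.0196). Of 10 slow fiber markers 4 were higher and 1 lower, with Tnnt1 at 1.70 and Tnni1 at 0.91. The lower gene was Myl3, with 11.88 to 13.35 in wild-type and 11.04 to 11.79 in knock-out mice. The 5 slow markers without a call, named after their values were seen, included the slow myosin Myh7 (-0.05, adjusted p = 0.933, limma). The others were Tpm3 (0.01), Myl2 (0.13), Atp2a2 (0.28) and Tnnc1 (0.53). The summed level of the fast list was 22.46 to 23.35 in wild-type and 22.19 to 22.39 in knock-out mice, and that of the slow list 16.04 to 16.96 and 16.91 to 17.19. The slow sum rested largely on Mybpc1, named for this reason. Its mean was 15.75 in wild-type and 16.31 in knock-out mice, the highest of that list. Of 6 fibroblast markers 3 were higher (summed level 13.16 to 14.18 in wild-type and 13.64 to 14.25 in knock-out mice), of 6 endothelial markers 3 were lower (12.03 to 12.37 and 11.55 to 12.03) and of 5 erythroid markers 2 were lower (12.00 to 13.37 and 11.49 to 12.09). Markers of macrophages, adipocytes, Schwann cells, smooth muscle and satellite cells gave 0 calls. No defining marker of these lists was at 0 in every mouse. The part of fiber type and other cells in the differences of the 36 genes was not tested.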

How the data were processed

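RNA of the gastrocnemius of 5 desmin knock-out and 5 wild-type mice had been sequenced with a stranded mRNA kit. Per the submitters' processing notes, reads were trimmed with cutadapt 2.5, aligned to GRCm38 (mm10) with STAR 2.5.4a, counted per gene with featureCounts of Subread 1.6.1 and processed with DESeq2; the study's methods name another version of featureCounts, run on Galaxy. The strand setting of the counting and the options of the transformation are not given in the sources used here. The methods speak of pooled RNA, but the table gives every mouse a column of its own, taken here as 1 replicate. The authors deposited regularized log values (log2, adjusted for library size, with shrinkage) and no counts, so counting error and depth are unknown, and only the number of mice and their spread set the precision. Since the methods mention pooling, p-values measure only the spread between these samples, which may be partly technical.

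Genes were matched to symbols and positions in GENCODE M21. Testing was limited to genes whose mean rlog value reached log2(10), and used limma 3.58.1 (R 4.3.3; eBayes with a variance trend, two-sided, Benjamini-Hochberg over the 14289 tested genes), with no pseudocount; the fit was tested on simulated data. The symbol Aldoa belongs to 2 Ensembl genes, of which the one at the RefSeq gene's position (ENSMUSG00000030695) was used. Isozyme pairs were compared with exact permutation tests in SciPy 1.17.1. Levels were ranked between genes only per kilobase of exon, with the union of all annotated exons of a gene as its length. Within-mouse differences of 2 genes are on the rlog scale, without length correction, and were compared between genotypes only. Copies were found with BLAST 2.17.0 among GENCODE M21 transcripts, and promoters are from RefSeq.

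The 36 genes and the other lists were chosen with earlier results of these data known. Named are Des, all 36 genes, up to 8 called genes with the smallest adjusted p of the further pathway genes and of the regulators, and up to 3 of each marker list; exceptions are marked, and some genes of the further pathway list are not reported here. Alternatives were quantile normalization, median centring, sample weights (limma's arrayWeights), 1 prior variance for all genes, a replicate block, removal of GC and length trends, an expression limit of log2(50) or none, an adjusted p under 0.01 and each mouse left out; centring on 7 skeletal muscle markers was added after the data were seen.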

Additional observations from a re-analysis of the deposited data

Results flagged for a closer look

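Of 118 groups of 5 mice looked at for the named genes, 10 held a mouse far from the other 4 by Dixon's criterion, where chance flags about 1 in 20, or 5.9. Wild-type mouse 3 was that mouse in 3 of them: its rlog value was high for Des (17.74) and Pfkfb1 (11.89) and low for Gpd2 (12.43). Among the other wild-type mice, Slc2a1 was low in mouse 4 (7.59) and Tigar low in mouse 5 (12.36). In the knock-out, Hk2 (13.97) and Pgm5 (10.23) were high in mouse 2, Fbp2 (10.40) and Six4 (10.19) in mouse 3, and Gbe1 (12.04) in mouse 5. For Fbp2, Gpd2 and Tigar the mouse concerned lay on the side of the other genotype, and for Pfkfb1 on the far side. Leaving out each mouse in turn kept Pfkfb1, Fbp2, Gpd2, Tigar and Pgm5 on the same side of the threshold. Six4 lost its call without knock-out mouse 1 or knock-out mouse 2.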

How the results depend on the processing

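The 10 genes lower with all mice numbered 9 to 15 when each mouse was left out, 20 with sample weights, 5 at an adjusted p under 0.01 and 2 when centred on the muscle markers; higher genes numbered 0 to 1 and, centred on the markers, 6. Without wild-type mouse 5 there were 15. Of the further pathway genes, 9 to 12 were lower and 2 to 4 higher with each mouse left out, 16 were lower with sample weights, and 1 was lower and 9 higher after the centring. Of the regulators, lower genes numbered 0 to 3 and higher genes 1 to 3 with each mouse left out. Lower regulators were 0 without the expression limit, 2 with median centring, 5 with sample weights, 3 without GC and length trends, 0 centred on the markers and 0 at an adjusted p under 0.01. Higher regulators were 1 without the limit, 1 with the replicate block, 8 centred on the markers and 1 at an adjusted p under 0.01. Of all tested genes, 560 to 1161 were lower and 833 to 1335 higher with each mouse left out. Sample weights gave 2127 and 2093, the centring 104 and 4431, and an adjusted p under 0.01 gave 371 and 623. Isozyme pairs that passed numbered 0 to 4 with each mouse left out (4 without wild-type mouse 5), 0 after quantile normalization and 0 with the replicate block, where the sign-flip test cannot go below 0.0625. With a mouse left out, 2 separated pairs alone cannot pass either. The cause of these changes was not tested.

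Some signs turned. Centring on the markers, by which the median of all genes moves by 0.41, gave Slc2a4 0.14, Hk1 0.41, Gpi1 0.14, Pfkl 0.04, Pgam1 0.30, Eno1 0.07, Ldhb 0.34, Phkg1 0.06, Gyg 0.33, Ppp1r3a 0.36 and Ppp1r3c 0.06. Median centring gave Hk2 -0.03, Gys1 -0.04 and Ugp2 just under 0.00. Quantile normalization gave Ldhb 0.02, Gyg 0.08, Ppp1r3a 0.03 and Pfkm over Pfkl 0.24. Sample weights gave Hk1 0.09, Hk2 -0.32, Pfkp -0.05, Gyg 0.05 and Ugp2 -0.03. Removal of GC and length trends gave Hk1 0.04, Ugp2 -0.10 and Hk2 over Hk1 -0.01. With each mouse left out, Hk1 ranged from -0.06 to 0.08, Hk2 from -0.18 to 0.15, Ldhb from -0.18 to 0.07, Gys1 from -0.09 to 0.10, Gyg from -0.12 to 0.02, Ugp2 from -0.05 to 0.10, Ppp1r3a from -0.29 to 0.13 and Hk2 over Hk1 from -0.27 to 0.20.

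Same-numbered mice did not deviate together (correlations -0.219 to 0.0673, and 0 of 10 mice correlated best with their own number). The replicate block gave the same 10 lower genes. Phkb was lost and Eno3 gained after quantile normalization. The values hold no counts, so neither depth nor counting error can be given for any gene.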
